A study of Saccharomyces cerevisiae with 26 samples.

Results

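Budding yeast that kept dividing on limiting glucose was compared with yeast that had stopped growing in spent medium. The comparison used 4 of the 26 Affymetrix yeast arrays of the series, chosen by their titles: 2 arrays of a chemostat and 2 arrays of stationary-phase batch culture. Both groups were the haploid laboratory strain S288C of mating type alpha, grown as free cells without oxygen under nitrogen at 32.5 °C and pH 5.5 in vessels of 200 mL working volume, and both were harvested 72 h after inoculation. The chemostat was diluted at 0.15 per h with medium holding 1 g/L glucose, the limiting nutrient, and had passed through 10 generations at steady state. The batch culture began at 10 g/L glucose and was taken after diauxy had set in, that is, after the shift away from glucose fermentation. The cultures therefore differed at once in feeding mode, growth rate, glucose supplied and spent products, which cannot be told apart. Log-phase batch cells (2 arrays, 12 h, 10 g/L glucose) are given in places as a further point, without a test. The labels do not say whether arrays of a group came from separate vessels, so the p-values refer to the spread among arrays, part or all of which may be technical.

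A chemostat holds cells at a fixed, nutrient-limited growth rate, because the culture is diluted as fast as it grows. Cells in a batch culture instead run out of glucose, leave the division cycle and, if they can, turn to the ethanol and other products that fermentation left behind. Yeast growth and starvation programmes are known to involve ribosome production, the division cycle and biosynthesis on one side, and gluconeogenesis, fatty acid oxidation, autophagy, reserve carbohydrates and stress proteins on the other.

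Each value below is the log2 of the deposited ratio, which sets a probe set against its own median over the 26 arrays, so it has no absolute level and is not compared between genes. Changes are log2 fold changes ± SE (chemostat minus stationary phase) from limma over 5445 genes. Calls required a change of 2-fold or more together with an adjusted p (Benjamini-Hochberg) below 0.05. The 2 chemostat arrays correlated at 0.949 across genes and the 2 stationary-phase arrays at 0.916, and within those groups 52 and 150 genes differed at least 2-fold. Control probe sets also differed between the groups. Poly-A spikes, which are added to the RNA before labelling, had mean log2 ratios of 0.233 and 0.350 in chemostat, against 2.27 and 2.83 in stationary phase. Over 8 control genes, probe sets at the 3' end minus those at the 5' end averaged -0.359 and -0.303 in chemostat, against -0.141 and 0.140 in stationary phase. The part of these differences in the results was not tested. Since array medians were all near a ratio of 1, a change common to all messenger RNA would not show.

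In all, 1894 of 5445 genes (34.8%) were called, 949 (17.4%) higher and 945 (17.4%) lower in the chemostat. The arrays of the groups did not overlap for any called gene, although this was also so for 2290 genes (42.1%) with chemostat higher and 2354 (43.2%) with chemostat lower, called or not. The falls reached further than the rises, down to -6.25 against up to 3.93. Where quantile normalization is said to be repeated, it was run on these log2 ratios, not on array signal. It thus gave all 26 arrays the same spread of ratios, which a normalization of signal does not do. Without stationary phase replicate 1 the calls numbered 1247, of which 559 were higher, and with quantile normalization repeated over the genes they numbered 400.

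**Figure D1:**
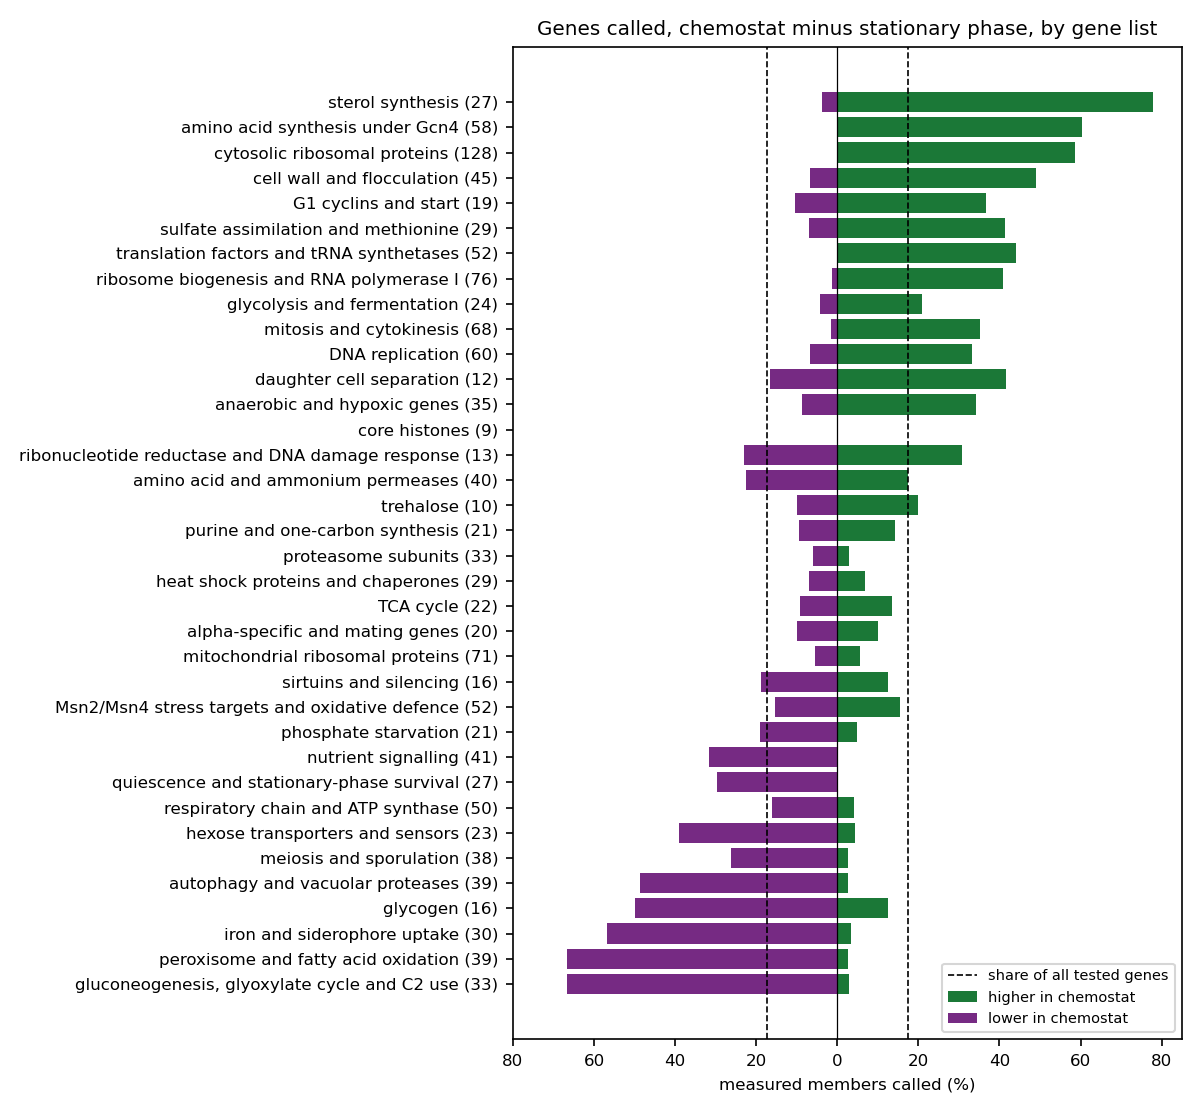
Share of the measured members of 36 gene lists (number measured in brackets) that were called, in percent, with bars to the right for members higher and bars to the left for members lower in the chemostat than in stationary phase. Dashed lines mark the 17.4% of all tested genes called in each direction; sterol synthesis reaches 77.8% higher, and gluconeogenesis and the peroxisome list each reach 66.7% lower.

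Among the 12 highest genes were transporters, enzymes of synthesis and genes of the division cycle. PMA2 (YPL036W), a minor form of the plasma membrane proton pump, had log2 ratios of 2.53 and 2.84 in chemostat, against -1.77 and -0.72 in stationary phase, a change of 3.93 ± 1.01. The major pump gene PMA1 (YGL008C), looked up after PMA2 was seen, changed by 2.87 ± 0.36. Nutrient and export functions followed, with BAP3 (YDR046C), a permease for branched-chain amino acids, at 3.16 ± 0.70, AQR1 (YNL065W), an exporter of the multidrug family, at 3.14 ± 0.63, and THI4 (YGR144W) of thiamine synthesis at 3.22 ± 0.66. THI4 had -1.23 and -1.04 in chemostat, against -4.74 and -3.96 in stationary phase, so it lay below its series median in all 4 arrays. The cell cycle was represented by PCL1 (YNL289W), a G1 cyclin, at 3.23 ± 0.94, RNR1 (YER070W), the large subunit of ribonucleotide reductase, at 3.08 ± 0.94, and CLB2 (YPR119W), the main mitotic cyclin, at 2.92 ± 0.73. GPP2 (YER062C), a glycerol-3-phosphatase, at 2.98 ± 0.49, HOM3 (YER052C) of threonine and methionine synthesis at 2.94 ± 0.47, ARO4 (YBR249C) of aromatic amino acid synthesis at 2.89 ± 0.58, the mitochondrial aldehyde dehydrogenase gene ALD5 (YER073W) at 2.88 ± 0.63 and the anaerobic mannoprotein gene TIR3 (YIL011W) at 3.02 ± 0.47 completed the 12. On the log-phase arrays PCL1 (2.65), RNR1 (2.58) and CLB2 (4.06) had positive mean log2 ratios, whereas those of PMA2 (-1.54), BAP3 (-2.71) and AQR1 (-1.99) were negative.

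The 12 lowest genes were mostly genes of peroxisomes and of growth on acetate or fatty acids. CTA1 (YDR256C), the peroxisomal catalase, had -4.03 and -2.81 in chemostat, against 2.56 and 3.10 in stationary phase, a change of -6.25 ± 0.85. PEX18 (YHR160C), which helps to import proteins into peroxisomes, changed by -5.96 ± 0.72. ADY2 (YCR010C), an acetate transporter, had 0.30 and 0.40 in chemostat, against 6.08 and 6.40 in stationary phase, a change of -5.89 ± 1.13. MLS1 (YNL117W), the malate synthase of the glyoxylate cycle, changed by -5.62 ± 0.93, YAT1 (YAR035W), a carnitine acetyltransferase, by -5.07 ± 1.12, SFC1 (YJR095W), a mitochondrial carrier of succinate and fumarate, by -4.75 ± 1.11, CRC1 (YOR100C), the mitochondrial carnitine carrier, by -4.73 ± 0.97 and FBP1 (YLR377C), the fructose-1,6-bisphosphatase of gluconeogenesis, by -4.58 ± 1.23. Another pair is known from meiotic messenger RNA methylation: SLZ1 (YNL196C), part of the methyltransferase complex, at -5.66 ± 0.94, and PHO92 (YDR374C), which binds the methylated RNA, at -5.50 ± 0.80. YIG1 (YPL201C) changed by -5.96 ± 1.20 and BSC4 (YNL269W) by -5.29 ± 0.85. For PHO92 the chemostat arrays (-3.56 and -3.60) lay close to the log-phase mean (-3.68), while stationary phase had 2.01 and 1.82.

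The adjusted p of these 24 genes was at most 0.0127. PMA2 lost its call without stationary phase replicate 1 (then 3.40), PCL1 without chemostat replicate 1 (3.21) or stationary phase replicate 1 (2.77), RNR1 without chemostat replicate 1 (3.08), chemostat replicate 2 (3.09) or stationary phase replicate 1 (2.67), and FBP1 without stationary phase replicate 2 (-3.94). TIR3, GPP2, HOM3, CTA1, PEX18, ADY2, SLZ1, MLS1, PHO92, BSC4 and CRC1 kept the call under all 14 alternatives, and the other 13 lost it with repeated quantile normalization.

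**Figure D2:**
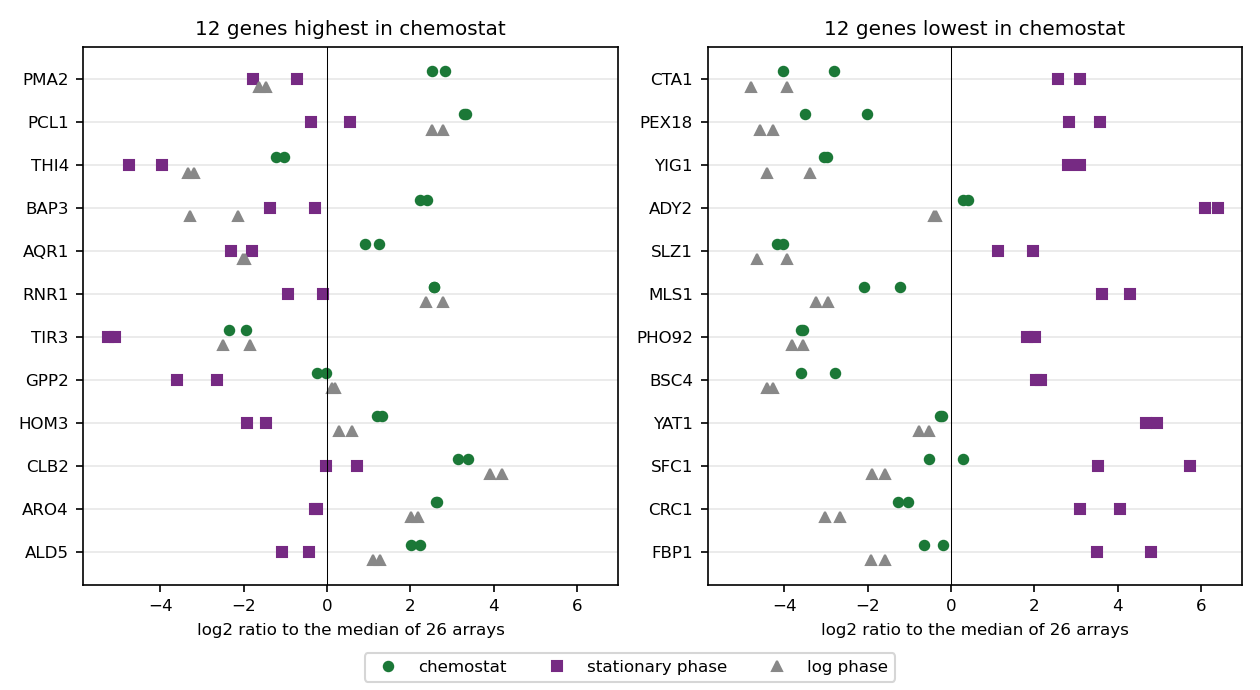
Log2 ratio of each array (horizontal axis) for the 12 genes highest and the 12 genes lowest in chemostat relative to stationary phase. Each point is 1 array (circles, chemostat; squares, stationary phase; triangles, log phase), and for every gene shown the chemostat and stationary-phase arrays do not overlap, which was a condition for showing it.

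Genes that make ribosomes and protein were higher in the chemostat. Of 128 genes in the list of cytosolic ribosomal proteins 75 (58.6%) were called higher and 0 lower, against 17.4% of all genes in each direction. The median change was 1.26, against -0.01 for all genes. The list also holds RPP1 (YHR062C), which codes for a subunit of RNase P and not for a ribosomal protein. RPL13A had 2.10 and 2.05 in chemostat, against -0.98 and -0.12 in stationary phase, a change of 2.63 ± 0.55. RPS17B changed by 2.57 ± 0.63 and RPS9A by 2.57 ± 0.37, with adjusted p of at most 0.00316 for the 3, and the large-subunit gene RPL3 by 1.36 ± 0.45 (adjusted p = 0.0193). Stationary phase was the low group here, since the median ribosomal protein gene had a log2 ratio of 1.01 in chemostat, -0.24 in stationary phase and 1.12 in log phase. Probe sets of 16 of these genes can also bind related transcripts, so signal of near-identical paralogs may be shared.

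Of 76 genes of ribosome biogenesis and RNA polymerase I, which make ribosomal RNA and assemble the subunits, 31 (40.8%) were higher and 1 lower, with a median of 0.90. PWP1, an assembly factor of the large subunit, had 1.29 and 1.13 in chemostat, against -1.63 and -1.41 in stationary phase, a change of 2.74 ± 0.40. The methyltransferase of nucleolar RNA NOP1 stood at 2.35 ± 0.71, its partner NOP56 at 2.27 ± 0.61 and the nucleolin-like NSR1 at 2.11 ± 0.80 (adjusted p = 0.0383). RPA190, the largest subunit of RNA polymerase I, was at 0.79 ± 0.33 and not called. Among 52 translation factors and tRNA synthetases 23 (44.2%) were higher and 0 lower, with a median of 0.96. The seryl-tRNA synthetase gene SES1 stood at 2.63 ± 0.63, the phenylalanyl-tRNA synthetase subunit FRS1 at 2.48 ± 0.55 and the lysyl-tRNA synthetase gene KRS1 at 2.26 ± 0.47. Among mitochondrial ribosomal proteins 4 of 71 (5.6%) were higher and 4 lower, with a median of -0.24.

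The number of ribosomal protein genes called higher was 46 without chemostat replicate 1, 47 without chemostat replicate 2, 31 without stationary phase replicate 1 and 5 with repeated quantile normalization, and ribosome biogenesis had 14, 22, 13 and 3 (20 without stationary phase replicate 2). Of the mitochondrial ribosomal proteins 2 were higher without chemostat replicate 1 and 6 without chemostat replicate 2, while 0 were lower without chemostat replicate 2 or stationary phase replicate 2 and 1 without stationary phase replicate 1. RPS17B lost the call without stationary phase replicate 1 (2.10), NOP1 and NOP56 without chemostat replicate 1 (2.12 and 2.07) or stationary phase replicate 1 (2.30 and 1.82), RPL3 without either chemostat array (1.35 and 1.37) or stationary phase replicate 1 (1.21), and NSR1 without any 1 of the 4 arrays (1.93 to 2.29), whereas PWP1 and RPS9A kept it under all 14 alternatives.

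**Figure D3:**
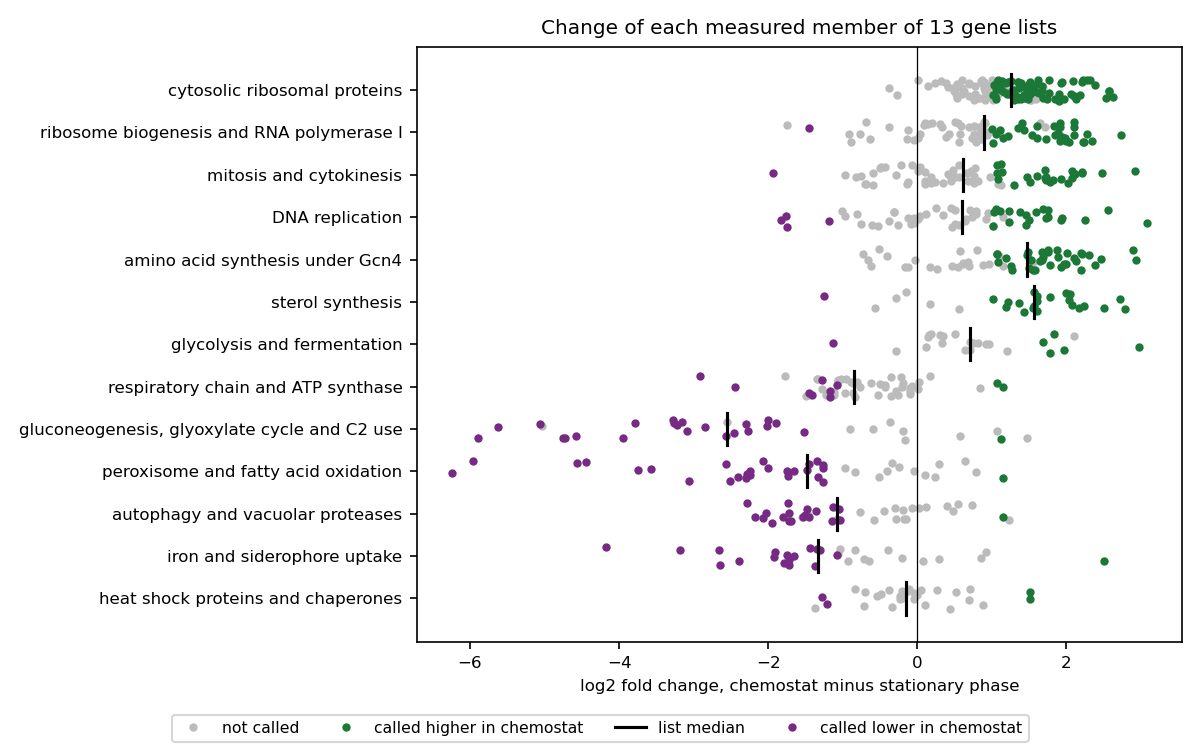
Log2 fold change, chemostat minus stationary phase, of every measured member of 13 gene lists; each point is a gene (green, called higher; purple, called lower; grey, not called), and the black bar is the list median, from 1.57 for sterol synthesis to -2.56 for gluconeogenesis, the glyoxylate cycle and C2 use.

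Genes of the division cycle were higher in the chemostat at several stages. Among 19 genes of G1 and start 7 (36.8%) were higher and 2 lower, with a median of 1.14. Next to PCL1, the G1 cyclin gene CLN1 had 2.61 and 2.78 in chemostat, against -0.14 and 0.92 in stationary phase (2.30 ± 0.59), and the repressor gene YOX1 stood at 2.10 ± 0.69. The inhibitor SIC1, which holds back S phase, was lower at -1.51 ± 0.33, with 0.30 and -0.02 in chemostat, against 1.52 and 1.77 in stationary phase. CLN2 at 1.01 ± 0.72 and CLN3 at 1.68 ± 0.72 were not called; CLN3 had 0.20 and 0.23 in chemostat, against -2.08 and -0.85 in stationary phase. CLN3 gained a call when only the 4 arrays compared were fitted (adjusted p = 0.0116 by limma), and both genes did in the fit of the 6 arrays of free cells (0.0447 for CLN2 and 0.0082 for CLN3).

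Of 60 DNA replication genes 20 (33.3%) were higher and 4 lower, with a median of 0.59. MCM5, a subunit of the replicative helicase, had 0.89 and 0.75 in chemostat, against -1.83 and -1.65 in stationary phase (2.56 ± 0.32), and the S-phase cyclin gene CLB6 stood at 2.25 ± 0.49. RNR4, a gene of the small subunit of ribonucleotide reductase, changed by 1.92 ± 0.32. The 4 lower members, named after their values were seen, were the initiation factor genes DPB11 (-1.82 ± 0.25) and TAH11 (-1.76), ORC6 of the origin complex (-1.19) and the polymerase epsilon subunit DPB4 (-1.75). Of 9 histone genes, among them the linker histone gene HHO1 and the variant gene HTZ1 besides the core histones, 0 were called by limma. Their changes ran from -0.59 (HHO1) to 0.84, and HTA1 (-0.05 ± 0.22, 95% interval -0.52 to 0.41) and HTB1 (0.20 ± 0.28, 95% interval -0.37 to 0.77) were close to 0.

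In mitosis and cytokinesis 24 of 68 genes (35.3%) were higher and 1 lower, with a median of 0.61. CLB2 had 3.39 and 3.14 in chemostat, against -0.03 and 0.72 in stationary phase, the related cyclin gene CLB1 stood at 2.48 ± 0.90 and the beta-tubulin gene TUB2 at 2.21 ± 0.50. Of 12 genes of daughter cell separation 5 (41.7%) were higher and 2 (16.7%) lower, against 17.4% of all genes in each direction. The wall protein gene SUN4 stood at 1.71 ± 0.46, and DSE3 (-1.67 ± 0.40) and NIS1 (-1.47 ± 0.43), both of the bud neck, were lower. The adjusted p of the called genes of the division cycle was at most 0.0306.

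Calls higher in the chemostat numbered 3 in the G1 list without chemostat replicate 1 or stationary phase replicate 1. In replication there were 8, 11, 13 and 12 without chemostat replicates 1 and 2 and stationary phase replicates 1 and 2. In mitosis there were 14, 15 and 10 without the first 3 of these arrays, and in daughter separation 0 without chemostat replicate 1 or stationary phase replicate 1. Lower replication genes numbered 2, 1 and 2 without the first 3 arrays, lower genes of daughter separation 0 without chemostat replicate 2 and 1 without stationary phase replicate 2, and lower G1 genes 1 without either of these arrays. Repeated quantile normalization left 2, 3, 5 and 0. CLN1 lost its call without stationary phase replicate 1 (1.77). YOX1 lost it without chemostat replicate 1 (2.09), chemostat replicate 2 (2.10) or stationary phase replicate 1 (1.53), as did CLB1 (2.61, 2.35 and 1.96). SUN4 lost it without chemostat replicate 1 (1.40) or stationary phase replicate 1 (1.29), and DSE3 (-1.13) and NIS1 (-1.14) without chemostat replicate 2, NIS1 also without stationary phase replicate 2 (-1.09).

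**Figure D4:**
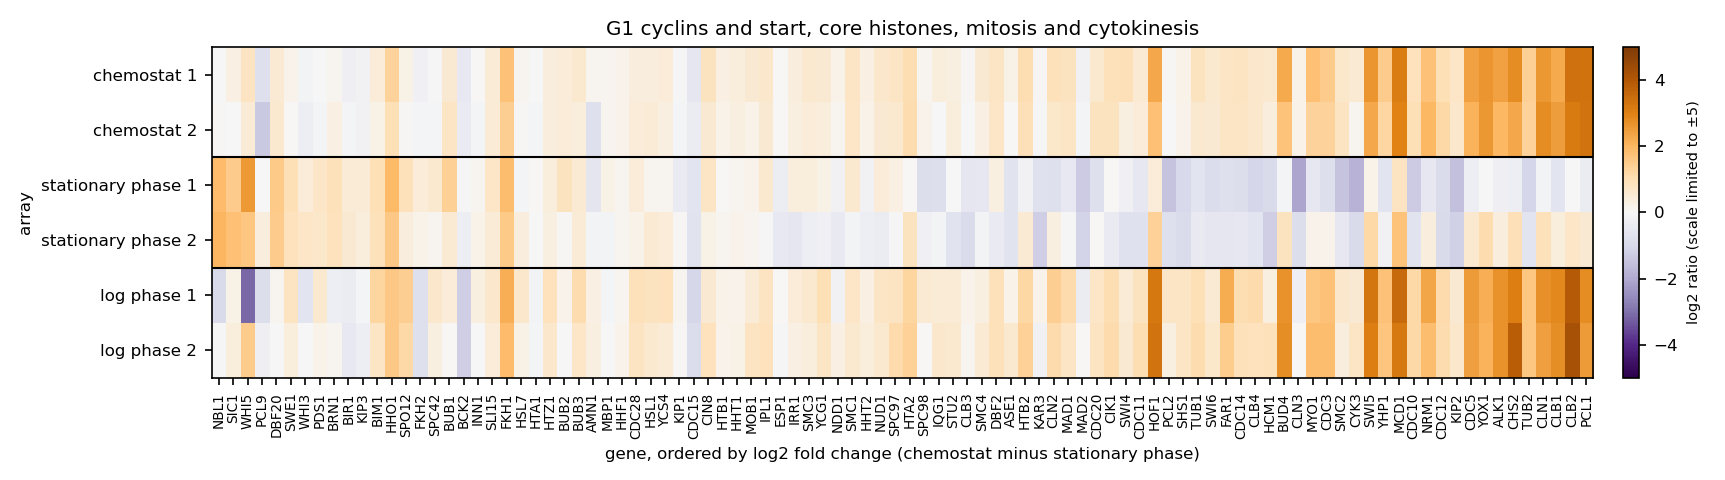
Log2 ratio (colour, scale limited to ±5) of 96 measured genes of G1 and start, histones, mitosis and cytokinesis, in columns ordered by their change, on the 2 chemostat, 2 stationary-phase and 2 log-phase arrays (rows). PCL1, CLB2 and CLB1 at the right are dark orange in chemostat and log phase and pale in stationary phase, while SIC1 at the left is orange in stationary phase.

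Genes for building amino acids, sulfur compounds and sterols were higher in the chemostat. Of 58 amino acid synthesis genes under Gcn4, the activator of that pathway, 35 (60.3%) were higher and 0 lower, with a median of 1.48. HOM3 had 1.19 and 1.31 in chemostat, against -1.92 and -1.45 in stationary phase, and ARO4 had 2.62 and 2.65 against -0.23 and -0.28. HIS7 of histidine synthesis changed by 2.46 ± 0.64 and HIS4 by 1.28 ± 0.44. GCN4 itself, whose activity is known to be set mainly by translation, was at -0.04 ± 0.18 (95% interval -0.40 to 0.33), and ARG1 at 0.46 ± 0.33 was not called.

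Of 29 genes of sulfate assimilation and methionine 12 (41.4%) were higher and 2 lower. The sulfate permease gene SUL1 had 3.34 and 2.79 in chemostat, against -0.08 and 0.61 in stationary phase (2.80 ± 1.03), the S-adenosylmethionine synthetase gene SAM1 stood at 2.71 ± 0.66 and the ATP sulfurylase gene MET3 at 1.83 ± 0.49. The methionine permease gene MUP1, at 2.77 ± 1.17, was not called, with 2.19 and 2.07 in chemostat, against -0.96 and -0.31 in stationary phase; it gained a call when only the 4 arrays compared were fitted (adjusted p = 0.000614 by limma). Sterol synthesis had the highest share of the 36 lists, with 21 of 27 genes (77.8%) higher and 1 lower and a median of 1.57. ERG5 had -0.35 and 0.09 in chemostat, against -3.43 and -2.39 in stationary phase (2.78 ± 0.35). The squalene epoxidase gene ERG1 stood at 2.72 ± 0.33, ERG26 at 2.51 ± 0.43 and ERG11, the lanosterol demethylase, at 1.61 ± 0.21. Sterol synthesis from squalene onward needs oxygen, and both cultures were kept under nitrogen. The 1 lower gene, named after its value was seen, was ECM22 (-1.26), a transcription factor of this pathway, while its relative UPC2, also named after its value was seen, was higher at 1.56. The count of lower sterol genes was 0 without either chemostat array or stationary phase replicate 1.

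Among called genes of these lists the adjusted p was at most 0.0334 for those named with an SE. The amino acid list had 23 calls without either chemostat array and 19 without stationary phase replicate 1, the sulfur list 6 without chemostat replicate 1 and 3 without stationary phase replicate 1, and sterol synthesis 12 without stationary phase replicate 1. Repeated quantile normalization left 9, 2 and 9. HIS4 (1.21 to 1.35) and SUL1 (2.45 to 3.14) lost the call without any 1 of the 4 arrays, SAM1 without stationary phase replicate 1 (2.16), and MET3 without chemostat replicate 1 (1.57) or stationary phase replicate 1 (1.23). ERG5, ERG1, ERG26 and ERG11 kept it under all 14 alternatives.

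The cell wall and the anaerobic response also differed, although both cultures were run under nitrogen. Of 45 genes of the cell wall and flocculation 22 (48.9%) were higher and 3 lower in the chemostat, with a median of 1.24. The glucan-remodelling gene GAS5 had -0.38 and -0.30 in chemostat, against -3.29 and -2.37 in stationary phase (2.49 ± 0.34), the wall-associated gene PST1 stood at 2.35 ± 0.22 and the yapsin protease gene YPS3 at 2.49 ± 0.95. Of 35 anaerobic and hypoxic genes 12 (34.3%) were higher and 3 lower, with a median of 0.24. Probe sets of 10 of the 35 can also bind related transcripts, so family members may share signal. The mannoproteins TIR3, with -2.36 and -1.94 in chemostat against -5.26 and -5.08 in stationary phase, and TIR1 (1.79 ± 0.24) were higher. CYC7, the hypoxic form of cytochrome c, was lower at -2.91 ± 0.82, with -2.90 and -2.84 in chemostat, against 0.11 and -0.01 in stationary phase. PAU3 of the seripauperin family was lower at -2.63 ± 0.50, from a probe set that can also bind other family members. The fatty acid desaturase gene OLE1 (-0.17 ± 0.23, 95% interval -0.64 to 0.30) and the hypoxic repressor gene ROX1 (-1.36 ± 0.81) were not called; ROX1 gained a call when only the 4 arrays compared were fitted (adjusted p = 0.00618 by limma). DAN1, an anaerobic mannoprotein gene left out of the test because day 0 arrays lack values, had -2.14 and -1.73 in chemostat, against -4.53 and -5.01 in stationary phase and -0.133 and -0.274 in log phase. Among the called genes of this paragraph adjusted p was at most 0.0382; YPS3 lost its call without chemostat replicate 2 (1.60), stationary phase replicate 1 (2.08) or stationary phase replicate 2 (2.90), and repeated quantile normalization left 8 wall and 2 anaerobic genes called higher.

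Carbon metabolism held many of the lowest genes of the chemostat, in the use of acetate, fatty acids and other non-sugar carbon. Of 33 genes of gluconeogenesis, the glyoxylate cycle and the use of acetate and other C2 compounds 22 (66.7%) were lower in the chemostat and 1 higher, with a median of -2.56. PCK1, which starts gluconeogenesis, had 1.11 and 1.16 in chemostat, against 3.94 and 4.78 in stationary phase (-3.22 ± 0.77), with a log-phase mean of -1.81, so the chemostat lay between log phase and stationary phase. ICL1, the isocitrate lyase of the glyoxylate cycle, had -0.56 and -0.44 in chemostat, against 2.41 and 4.15 in stationary phase (-3.78 ± 0.74). The acetyl-CoA synthetase gene ACS1 changed by -2.29 ± 0.50. CAT8, the activator of many of these genes, was lower at -2.85 ± 0.84. ADH2, the alcohol dehydrogenase of ethanol use, was not called, with 0.99 and 0.86 in chemostat, against 0.81 and 1.38 in stationary phase (-0.17 ± 0.37, 95% interval -0.93 to 0.59).

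Of 39 genes of peroxisomes and fatty acid oxidation 26 (66.7%) were lower and 1 higher, with a median of -1.49. Besides CTA1 and PEX18, the thiolase gene POT1 of beta-oxidation had -0.80 and -0.64 in chemostat, against 3.66 and 4.03 in stationary phase (-4.56 ± 0.85). The count of 26 was 23 without each of the 4 arrays in turn, the same in the fit of only the 4 arrays compared and 13 with repeated quantile normalization.

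**Figure D5:**
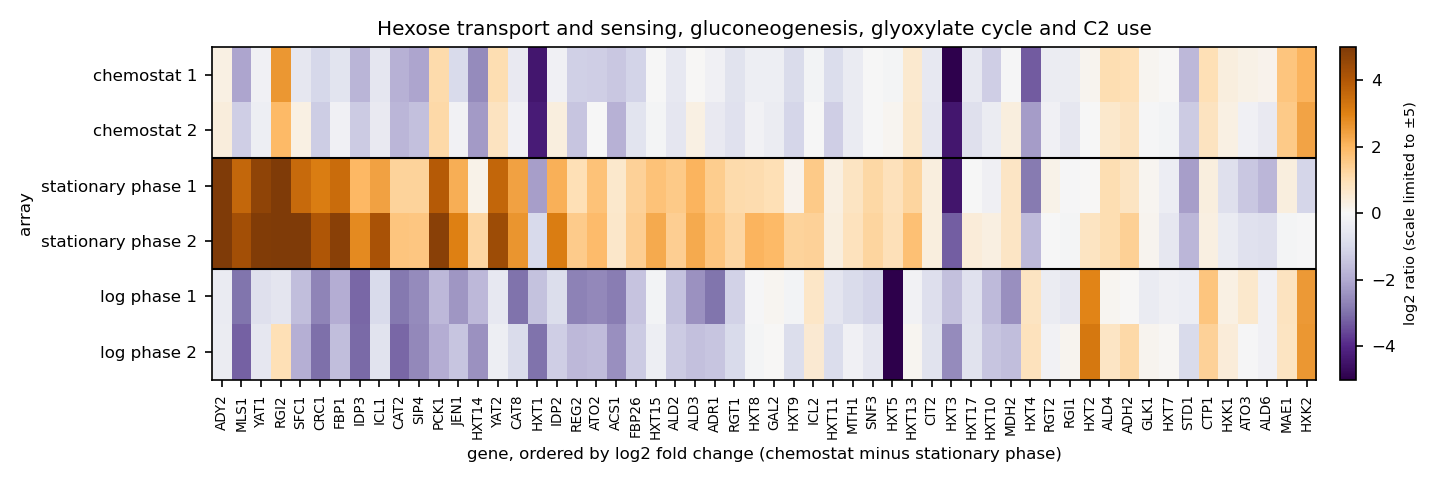
Log2 ratio (colour, scale limited to ±5) of 56 measured genes of hexose transport and sensing, gluconeogenesis, the glyoxylate cycle and C2 use, in columns ordered by their change, on the 2 chemostat, 2 stationary-phase and 2 log-phase arrays (rows). ADY2, MLS1 and YAT1 at the left are dark orange only in stationary phase among these 6 arrays, and HXK2 at the right is orange in chemostat and log phase.

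Genes of glucose uptake were lower in the chemostat or not called, while the hexokinase gene HXK2 was higher. Of 23 genes of hexose transport, phosphorylation and sensing 9 (39.1%) were lower and 1 higher in the chemostat. The 1 higher gene was HXK2, the main hexokinase of growth on glucose, with 2.07 and 2.37 in chemostat, against -1.09 and -0.05 in stationary phase (2.79 ± 0.50). The low-affinity transporter gene HXT1 had -4.41 and -4.30 in chemostat, against -2.21 and -0.99 in stationary phase (-2.75 ± 0.86), and HXT14 was lower at -3.15 ± 0.85. The transporter genes HXT2 (-0.35 ± 0.78), HXT3 (-0.83 ± 0.53), HXT5 (-0.95 ± 0.36) and HXT7 (0.38 ± 0.33, a probe set that can bind related transcripts) were not called. HXT5 had -0.10 and 0.08 in chemostat, against 0.93 and 0.95 in stationary phase, and a log-phase mean of -5.28, and HXT2 was high in log phase, with a mean of 3.10. The hexokinase gene HXK1, at 0.90 ± 0.25 with adjusted p = 0.00749, missed the fold minimum and was called without stationary phase replicate 2 (1.08).

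Of 24 genes of glycolysis and fermentation 5 (20.8%) were higher, near the 17.4% of all genes, and 1 (4.2%) was lower, below it, with a median of 0.71. Changes were above 0 for 22 of the 24, and the arrays did not overlap, with chemostat higher, for 20, against 42.1% of all genes. The called rises included glycerol formation, with GPP2 at -0.24 and -0.03 in chemostat, against -3.60 and -2.63 in stationary phase, and the glycerol-3-phosphate dehydrogenase gene GPD2 at 1.96 ± 0.59. GPP1, the relative of GPP2, at 2.10 ± 0.92, was not called, but was when only the 4 arrays compared were fitted (adjusted p = 0.000557 by limma). PDC1 (0.15 ± 0.46), ADH1 (0.33 ± 0.22) and TDH3 (0.30 ± 0.24), of the main fermentation path, were not called. TDH1, at 0.93 ± 0.17 with adjusted p = 0.000392, missed the fold minimum and was called without chemostat replicate 1 (1.02) or stationary phase replicate 2 (1.14). In the TCA cycle 3 of 22 genes (13.6%) were higher and 2 (9.1%) lower, both below the 17.4% of all genes. The citrate synthase gene CIT3 had -0.42 and -0.19 in chemostat, against 3.03 and 3.82 in stationary phase (-3.73 ± 0.64), while the oxodicarboxylate carrier gene ODC2 (2.26 ± 0.42) and the pyruvate carboxylase gene PYC2 (1.98 ± 0.30), which refill the cycle's acids or carry them, were higher. Of 50 genes of the respiratory chain and ATP synthase 8 (16.0%) were lower, near the 17.4% of all genes, and 2 (4.0%) higher, with a median of -0.85. NDE2, an external NADH dehydrogenase of mitochondria, was lower at -2.45 ± 0.46. The respiratory activator gene HAP4, at -1.78 ± 0.88, was not called. HAP4 gained a call (adjusted p = 0.00206 by limma) when only the 4 arrays compared were fitted. CYC1 at -0.10 ± 1.45 had a 95% interval of -3.11 to 2.92. Its arrays had 2.27 and 2.25 in chemostat, against 2.07 and 2.64 in stationary phase, and its SE takes in the spread of all 9 groups. The arrays did not overlap, with chemostat lower, for 39 of these 50 genes, against 43.2% of all genes.

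The respiratory count rested on the samples in the fit, with 20 genes lower when only the 4 arrays compared were fitted, 2, 4, 3 and 3 without chemostat replicates 1 and 2 and stationary phase replicates 1 and 2, and 0 with repeated quantile normalization. In the hexose list 4 genes were lower without stationary phase replicate 2, and 0 with repeated quantile normalization. In the glycolysis list 3 were higher without stationary phase replicate 1. Repeated quantile normalization left 8 genes of gluconeogenesis and C2 use. HXT14 (-2.65) lost its call without stationary phase replicate 2 and HXT1 without that array (-2.14) or either chemostat array (-2.70 and -2.81). CAT8 lost it without chemostat replicate 1 or stationary phase replicate 2 (-2.73 in both cases), and GPD2 without chemostat replicate 1 (1.86) or stationary phase replicate 1 (1.59). ICL1, POT1, HXK2, ODC2 and PYC2 kept it under all 14 alternatives, and the adjusted p of the called carbon genes named here was at most 0.0143.

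Genes for uptake of iron and siderophores were lower in the chemostat, while nitrogen genes were called in both directions. Of 30 genes of iron and siderophore uptake 17 (56.7%) were lower and 1 higher, with a median of -1.33. ARN2, a siderophore transporter, had -1.73 and -1.74 in chemostat, against 2.39 and 2.48 in stationary phase (-4.17 ± 0.51). FIT2, a wall mannoprotein that holds siderophores, stood at -3.18 ± 0.60 and the haem oxygenase gene HMX1 at -2.66 ± 0.54. The 1 higher gene was FTR1 (2.50), the high-affinity iron permease, named after its value was seen; the count of higher iron genes was 0 without chemostat replicate 1 or stationary phase replicate 1. Of 40 genes of amino acid, ammonium and other nitrogen uptake and breakdown 7 (17.5%) were higher and 9 (22.5%) lower, both near the share of all genes. The GABA permease gene UGA4 had -1.08 and -0.47 in chemostat, against 3.25 and 3.26 in stationary phase (-4.03 ± 0.56), the repressor gene DAL80 stood at -3.77 ± 0.74 and the allantoin breakdown gene DAL2 at -3.65 ± 0.56, whereas BAP3 was among the highest genes. In the phosphate list 4 of 21 genes (19.0%) were lower, also near the 17.4% of all genes, and 1 (4.8%) was higher. The sodium-phosphate transporter gene PHO89 had 0.30 and 0.86 in chemostat, against 3.06 and 3.96 in stationary phase (-2.93 ± 1.07), SPL2, an inhibitor of low-affinity phosphate uptake, stood at -2.78 ± 0.72 and the vacuolar phosphatase gene PHO8 at -2.03 ± 0.22, while the main transporter gene PHO84 (-0.88 ± 1.05) was not called and lay low in all 4 arrays.

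The adjusted p of the called genes in these lists was at most 0.0316. The 17 iron genes became 15 or 16 without each of the 4 arrays and 6 with repeated quantile normalization. In the nitrogen list 4 genes were higher without chemostat replicate 1, and 5 were lower without chemostat replicate 2 or stationary phase replicate 2. The phosphate list had 2 lower without each array, and PHO89 lost its call without any 1 of the 4 (-3.38 to -2.48). ARN2, FIT2, HMX1, UGA4, DAL2 and PHO8 kept it under all 14 alternatives.

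Autophagy genes were lower in the chemostat, while the stress protein genes HSP12, HSP26 and HSP104 were not called. Of 39 genes of autophagy and vacuolar proteases 19 (48.7%) were lower and 1 higher, with a median of -1.07. ATG3, which attaches Atg8 to membrane lipid, stood at -2.29 ± 0.52, and ATG31 of the scaffold complex at -2.06 ± 0.25. ATG11, a scaffold of selective autophagy, had -0.99 and -0.87 in chemostat, against 1.28 and 1.22 in stationary phase (-2.18 ± 0.26). Of 27 measured genes of quiescence and stationary-phase survival 8 (29.6%) were lower and 0 higher. MOH1 had -1.81 and -1.16 in chemostat, against 1.15 and 1.01 in stationary phase (-2.56 ± 0.31), and SNZ1 of vitamin B6 synthesis stood at -1.83 ± 0.58. SPG4 had -1.61 and -1.56 in chemostat, against 1.03 and 0.93 in stationary phase, and a log-phase mean of -6.19; its change of -2.57 ± 1.20 was not called, nor was that of the pyruvate carrier gene MPC3 (-2.54 ± 1.20). Both gained a call when only the 4 arrays compared were fitted (adjusted p = 0.000434 for SPG4 and 0.00049 for MPC3 by limma). SPG1, left out of the test because log-phase arrays lack values, had -3.04 and -3.33 in chemostat, against 0.499 and 0.644 in stationary phase. SPS100, left out for the same reason, had -1.37 and -1.23 in chemostat, and both stationary-phase arrays (0.0468 and 0.0058) lay above them.

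Of 29 heat shock and chaperone genes 2 were higher and 2 lower, shares of 6.9% each that lie below those of all genes. The 2 higher genes were SSB1 (1.51 ± 0.52) and SSB2 (1.51 ± 0.33), the ribosome-bound chaperones, and BTN2 (-1.37 ± 0.70) was not called. HSP12 had 0.10 and 0.11 in chemostat, against 0.35 and 0.33 in stationary phase (-0.24 ± 0.24, 95% interval -0.74 to 0.27). HSP26 had -0.12 and -0.04 in chemostat, against -0.12 and -0.15 in stationary phase (0.05 ± 0.17, 95% interval -0.30 to 0.41), and the disaggregase gene HSP104 changed by -0.20 ± 0.20 (95% interval -0.62 to 0.22). Log-phase means of these 3 genes were lower, at -0.67, -1.19 and -0.62. SSA3 (-0.70 ± 0.66), CTT1 (-0.94 ± 0.41) and GRE1 (-1.27 ± 0.71) were not called and had log-phase means of -3.42, -2.43 and -4.34. GRE1 and BTN2 gained a call when only the 4 arrays compared were fitted (adjusted p = 0.00117 and 0.00187 by limma). Of 52 Msn2/Msn4 stress targets and oxidative defence genes 8 (15.4%) were higher and 8 (15.4%) lower, both near the 17.4% of all genes. Changes were below 0 for 34 of the 52 and above 0 for 18. The arrays did not overlap, with chemostat lower, for 32, against 43.2% of all genes, and with chemostat higher for 14, against 42.1%. The membrane protein gene MRH1 had 1.26 and 1.54 in chemostat, against -1.28 and -1.25 in stationary phase (2.66 ± 0.48), and the glutathione peroxidase gene GPX1 (-2.36 ± 0.54) and PHM7 (-2.44 ± 0.58) were lower.

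Reserve carbohydrates differed by gene. Of 16 glycogen genes 8 (50.0%) were lower and 2 higher. GLG2, the glycogenin that primes the polymer, had log2 ratios that averaged 0.12 ± 0.17 (SD, n = 2) in chemostat, against 3.31 and 3.11 on the stationary-phase arrays (-3.10 ± 0.41). SGA1, a sporulation glucoamylase that breaks glycogen down, stood at -2.38 ± 0.73, and GLC8, which regulates a phosphatase, at -2.09 ± 0.69. The phosphorylase gene GPH1 was higher at 1.27 ± 0.35 and the main synthase gene GSY2 (-0.07 ± 0.32) was not called. Of 10 trehalose genes 2 were higher and 1 lower, with TPS1 (-0.12 ± 0.24) not called, TPS3 at 1.67 ± 0.37 and PGM1 at 1.09 ± 0.36 higher and the trehalase gene ATH1 at -1.37 ± 0.30.

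Of 41 nutrient signalling genes 13 (31.7%) were lower and 0 higher, among them MIG3 at -2.47 ± 0.54, a repressor gene, and SIP2 at -2.13 ± 0.41, a subunit of the Snf1 kinase, next to CAT8 at -2.85 ± 0.84. RIM15, the kinase gene of entry into quiescence, was at 0.50 ± 0.24 and not called. Of 38 genes of meiosis and sporulation, which these haploid cells do not carry out, 10 (26.3%) were lower and 1 higher. MEK1, a meiotic kinase, had -1.67 and -1.78 in chemostat, against 1.67 and 1.78 in stationary phase (-3.45 ± 0.60), and RIM4 (-3.20 ± 0.91) and SPO20 (-2.43 ± 0.76) were also lower.

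Other lists had few calls or calls in both directions, against 17.4% of all genes in each. For the proteasome 1 of 33 subunits (3.0%) was higher and 2 (6.1%) were lower. Purine and one-carbon synthesis had 3 of 21 genes (14.3%) higher and 2 (9.5%) lower. Alpha-specific and mating genes had 2 of 20 (10.0%) higher and 2 (10.0%) lower. Sirtuins and silencing had 2 of 16 (12.5%) higher and 3 (18.8%) lower. Ribonucleotide reductase and the DNA damage response had 4 of 13 (30.8%) higher and 3 (23.1%) lower. Without chemostat replicate 1 the purine list had 0 higher and 0 lower, the mating list 1 and 0, silencing 1 higher, the ribonucleotide reductase list 2 higher and the proteasome 2 higher and 1 lower. Without chemostat replicate 2 the purine list had 1 higher, the mating list 1 higher and 1 lower and the ribonucleotide reductase list 1 higher. Without stationary phase replicate 1 the purine list had 0 higher, the mating list 0 higher and 1 lower, silencing 1 higher, the ribonucleotide reductase list 1 higher and the proteasome 1 lower. Without stationary phase replicate 2 the mating list had 1 higher and 0 lower and silencing 1 higher. Within these lists SIR2, the silencing deacetylase, was at 0.17 ± 0.36 and not called, and the DNA damage repressor gene RFX1 was lower at -1.84 ± 0.27. ACT1, often taken as a constant gene, had 0.10 and 0.06 in chemostat, against -0.82 and -0.55 in stationary phase; its change of 0.77 ± 0.18 (adjusted p = 0.00238) missed the fold minimum.

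Without chemostat replicate 1 the autophagy list had 11 genes lower, the quiescence list 5, nutrient signalling 6, meiosis 6, glycogen 4 and the Msn2/Msn4 list 5. Without stationary phase replicate 1 the quiescence list had 4, meiosis 6, glycogen 4 and the Msn2/Msn4 list 5 lower and 5 higher. Glycogen had 4 and 3 without chemostat replicate 2 and stationary phase replicate 2, and nutrient signalling had 8 without stationary phase replicate 2. When only the 4 arrays compared were fitted, 22 autophagy, 12 quiescence, 15 nutrient signalling, 18 meiosis, 9 glycogen and 13 Msn2/Msn4 genes were lower. In that fit 1124 of all 5445 genes were lower, against 945 in the reported fit. Repeated quantile normalization left 6, 3, 1, 3, 2 and 1 genes lower in the 6 lists. Of the chaperones 0 were lower without either chemostat array or stationary phase replicate 2 and 1 without stationary phase replicate 1, and 0 were called in either direction with repeated quantile normalization. Without stationary phase replicate 1 the higher genes numbered 0 for glycogen and 1 for trehalose, and trehalose also had 1 higher without either chemostat array. SNZ1 lost its call without chemostat replicate 1 (-1.59) or either stationary-phase array (-1.83), as did SGA1 (-2.24, -2.40 and -2.35). RIM4 lost it without chemostat replicate 2 (-2.88) or stationary phase replicate 1 (-2.97), SPO20 without chemostat replicate 1 (-2.22) or stationary phase replicate 1 (-1.90), GPH1 without stationary phase replicate 1 (1.04), and GLC8 without any 1 of the 4 arrays (-2.12 to -2.05). SSB1 and PGM1 lost it without either chemostat array (1.51 and 1.52; 1.08 and 1.10) or stationary phase replicate 1 (1.11 and 0.86), while CTT1 gained a call without chemostat replicate 2 (-1.34). MOH1, ATG11, ATG31, GLG2, ATH1, SIP2, MEK1 and RFX1 kept the call under all 14 alternatives.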

How the data were processed

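Signal was summarised with RMA per the submitters' processing notes, and the authors deposited linear ratios of 0.0102 to 158.7. Medians of single probe sets across all 26 arrays run from 0.9905 to 1.047, so the ratio is relative to that median. Precision is limited by the number of arrays.

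Log2 was taken for 5498 probe sets that the platform annotation ties to 1 gene of Saccharomyces cerevisiae; symbols follow RefSeq. For 47 genes with several probe sets the probe set of highest mean ratio stood for the gene. Another 4 genes with missing values (DAN1, NCA3, SPG1, SPS100) were not tested, which left 5445. Identifiers of 102 of these mark probes that can bind several transcripts. With limma 3.58.1 in R 4.3.3 (lmFit, eBayes), 9 group means were estimated from all 26 arrays; residual plus prior degrees of freedom came to 21.02, so the spread also comes from arrays of cells in alginate beads. The median SD of a gene was 0.0930 in chemostat and 0.169 in stationary phase, against 0.482 at day 1 in beads.

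The 36 gene lists, the members compared and the 56 measured genes named in any case were chosen with earlier results of these data known. The rule for named genes took the 12 called genes at each extreme whose arrays did not overlap, the 3 most changed members (by absolute change) of each list described, and those 56, of which 11 were called higher and 11 lower. Genes outside this rule are said to have been named after their values were seen. The fitting code was tested on simulated data. Alternatives were other sets of arrays, 2 normalizations of the log2 ratios, averaged probe sets and no fold minimum. Others were another prior, array weights, the replicate number as a block and leaving out each array. A filter on dim probe sets cannot be made from ratios, and promoter motifs were not analysed here. Figures were drawn with matplotlib 3.10.9.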

Additional observations from a re-analysis of the deposited data

How the results depend on the processing

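Under the 14 alternatives no named gene with a call in the reported fit or in the alternative reversed, and no gene called in both changed sign. Sign changes of named genes called in neither were not counted. Much of this outcome was fixed in advance. The arrays did not overlap for any called gene, so leaving out 1 array cannot reverse it. Fits of other sets of arrays, with another prior or with no fold minimum keep the same means of the groups compared. The 1894 calls became 400 with quantile normalization repeated over the genes (183 higher, 217 lower), all of them among the 1894; the cause was not tested. Leaving out each of the 4 arrays gave 1247 to 1563 calls, with 559 to 830 higher and 662 to 733 lower, fewest without stationary phase replicate 1; such fits take the spread of the single array left from the other groups. Of the 120 named genes with a call, 42 kept it under every alternative; 78 lost it with repeated quantile normalization and 17 to 34 when 1 array was left out, among them MF(ALPHA)1 without any of the 4. Of the named genes without a call, 10 or 11 gained one in the fits of 4, 6 or 8 arrays or with array weights, 4 with no fold minimum, 0 to 3 when 1 array was left out and 3 with the replicate block (CLN3, GPP1 and MPC3). The fit of only the 4 arrays compared gave 2206 calls, of only free cells 2181, of the groups with 2 arrays 2192, with array weights 2210, with no fold minimum 2381, with array medians set to 0 1899, with averaged probe sets 1892 and with a trended, robust prior 1895. No label says whether equal replicate numbers pair arrays of the 2 groups. The correlation of deviations was -0.0195, which with 2 arrays a group is a single value and cannot tell whether arrays were handled together. With the replicate block there were 1962 calls, of which 1878 were shared with the reported fit. The number of arrays, 2 a group, limits the precision.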

Other observations

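Lists of the report did not hold 2 further groups, which were looked up after the highest and lowest genes had been seen and carry no test as groups. Apart from SLZ1, PHO92 and THI4, calls of their genes were not followed under the alternatives. The first is messenger RNA methylation in meiosis, which includes SLZ1 and PHO92. IME4, the catalytic subunit of the methyltransferase, had -0.51 and -0.77 in chemostat, against 2.02 and 2.78 in stationary phase (-3.04 ± 0.52, adjusted p = 0.000172 by limma), and a log-phase mean of -0.66. MUM2, another subunit, was at -0.55 ± 0.39 and not called.

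The second is thiamine synthesis and uptake, to which THI4 belongs. The thiamine transporter gene THI7 was higher in the chemostat at 1.32 ± 0.43, and THI13, a gene of the pyrimidine branch, at 1.52 ± 0.53. In the opposite direction, THI72 was lower at -1.54 ± 0.31 and THI73 at -1.25 ± 0.41. The genes THI2 (0.41 ± 0.36), THI3 (-0.39 ± 0.26), THI6 (-0.55 ± 0.20), THI20 (0.34 ± 0.25), THI21 (-0.60 ± 0.34) and THI22 (0.44 ± 0.26) were not called.

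RGI2, a gene of respiratory growth named after its values were seen, had among the widest distances between the cultures without a call, with 2.58 and 1.95 in chemostat, against 7.31 and 7.28 in stationary phase (-5.03 ± 2.13, adjusted p = 0.0607 by limma). NCA3, without values in stationary phase, had -1.79 and -0.991 in chemostat and -6.38 on 1 log-phase array.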
